A study of Mus musculus with 20 samples.

Results

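Tmem47, 1 of the 34291 gene rows in the deposited count table, encodes a small membrane protein of cell junctions. It was followed through the hearts of old C57BL/6 mice that ate a rapamycin diet or a control diet. The gene was selected on measured values of these libraries, namely the separation of its levels between the diets and its standing among the genes that rose with rapamycin. Its difference between the diets is therefore given as a description, with no test. Separation also depends on the spread among hearts on the same diet, so that spread is not independent of the choice. The behaviour of junction genes was not used in it.

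The animals were 27 months old when the hearts were taken. Feeding began at 24 months and lasted 3 months, with 14 ppm rapamycin in the food of 10 mice and an age-matched control diet for the other 10. Rapamycin inhibits the kinase mTOR, a regulator of protein synthesis and growth. All the mice carried the same background and no transgene or deletion is named, and their sex is not given in the sources used here. Whole hearts were powdered, so that every cell type of the organ contributed RNA, and polyadenylated RNA was sequenced.

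Tmem47 belongs to the superfamily of claudins, PMP22 and the epithelial membrane proteins, multi-pass membrane proteins that sit where cells touch. Its product is known from epithelial cells, where it moves from adherens towards tight junctions as contacts mature, and it has been reported to bind the kinase Fyn and members of the PAR6 and atypical protein kinase C polarity complex. In heart muscle, adherens junctions, desmosomes and gap junctions are gathered at the intercalated disc, the end-to-end contact of cardiomyocytes, while claudin-based tight junctions are mainly a feature of the endothelium and other linings. The gene lies on the X chromosome, where the GENCODE annotation gives it 3 transcripts with up to 4 exons, and no other RefSeq gene overlaps it.

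Some libraries stood apart before any comparison was made. Library totals ranged from 7039514 to 10594335 counts in the control group and from 8525162 to 12458309 in the rapamycin group. Genes of lung, liver or thymus exceeded 10 times their median summed level in 8 libraries. Control 19 held 29261 CPM (counts scaled to a common library size) of lung genes against a median of 2.34, and control 1, control 20 and rapamycin 15 carried smaller amounts. Liver genes were over the limit in rapamycin 9, rapamycin 4 and control 7, and thymus genes in rapamycin 8. The cardiac identity of the libraries was plain from Myh6, the main myosin heavy chain of the adult mouse ventricle and atrium, at 4993 to 22967 normalised CPM.

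Tmem47 was a gene of middling abundance in the old heart and was higher on the rapamycin diet. In the 10 control hearts its normalised level (CPM after TMM scaling, which corrects for differences in library composition) was lowest at 24.8 in control 13, had a median of 32.4 and was highest at 36.4 in control 11. In the 10 rapamycin hearts the lowest value was 36.9 in rapamycin 3, the median 44.5 and the highest 49.2 in rapamycin 15. The means were 31.7 ± 3.83 (SD, n = 10) and 44.1 ± 3.71 (SD, n = 10), a ratio of 1.39. The edgeR log2 fold change of rapamycin over control was 0.47 ± 0.07 (SE), which placed Tmem47 at rank 30 by fold among the 96 genes called as rising.

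On this scale no control heart reached the level of any rapamycin heart, but the margin was thin. Control 11 and rapamycin 3 were only 0.556 CPM apart. Their 95% Poisson intervals, which cover counting error only, ran from 32.6 to 40.4 and from 33.2 to 40.9 CPM and overlapped almost completely. The intervals of 5 rapamycin hearts lay wholly above the interval of control 11, and those of the other 5 did not. Complete separation upwards was seen for 2 of 13940 genes tested (0.0143%), Tmem47 and the brain-type glycogen phosphorylase gene Pygb, which is named here after its values were seen. Complete separation downwards was seen for 8 genes (0.0574%), and nothing is read from these counts for Tmem47, since the separation was part of its choice.

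The separation depended on the scaling of the libraries. The raw counts of Tmem47 overlapped, with 236 to 378 in control hearts and 359 to 597 in rapamycin hearts. In CPM made from library totals alone, which is how the authors deposited them, control hearts ran from 24.4 to 38.5 around a median of 33.1. The rapamycin hearts ran from 35.7 to 47.9 around a median of 43.2 on that scale. There 8 of 10 rapamycin hearts were above every control heart, 6 of 10 control hearts were below every rapamycin heart, and the ratio of means was 1.28. No gene was completely separated upwards by library totals. The fold from library totals was 0.35 ± 0.08, where the median gene moved by -0.13, against 0.47 and a median of -0.01 with TMM. The TMM factors were 0.942 to 1.22 in control and 0.908 to 1.06 in rapamycin libraries. Mitochondrially encoded genes took 20.8% ± 2.20 of the counts in control hearts and 23.0% ± 2.01 in rapamycin hearts (SD, n = 10 each), and their part in the scaling was not tested. With DESeq2 size factors the lowest rapamycin heart was at 37.1 and the highest control heart at 36.5, and with upper quartile factors the values were 37.2 and 36.9.

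**Figure D1:**
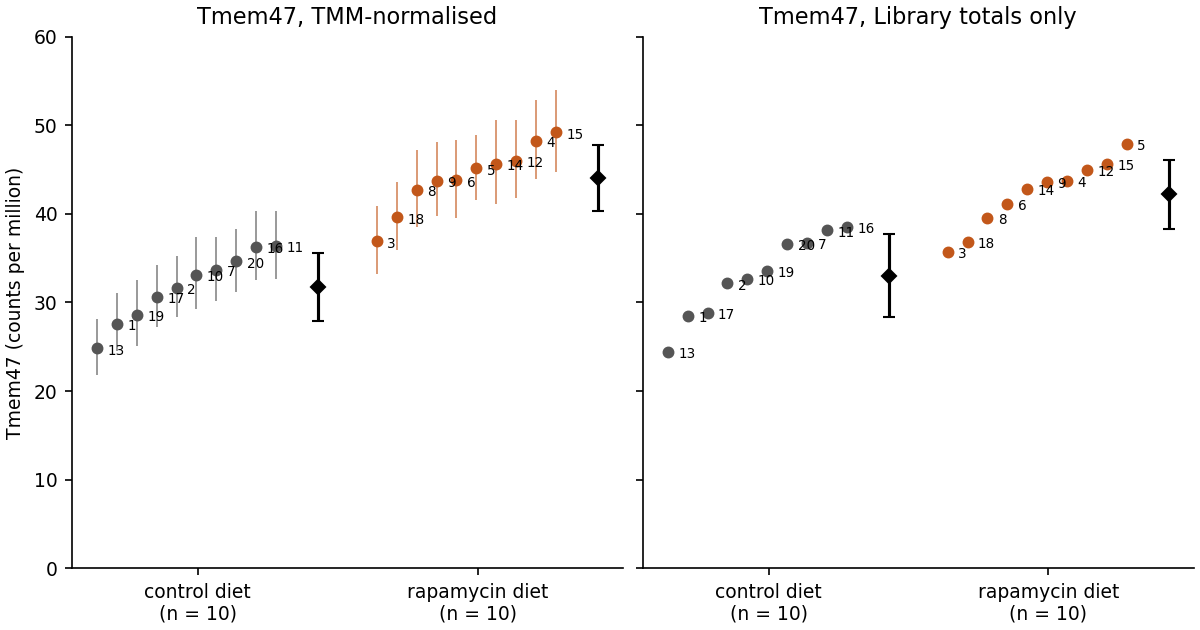
Tmem47 in each heart, in CPM, with the library number to the right of its point; the left panel uses TMM scaling with 95% Poisson intervals as thin lines, the right panel library totals only, and diamonds with bars are the mean and SD of 10 hearts. With TMM scaling every rapamycin point is above the highest control point (36.4), while with library totals rapamycin 3 and rapamycin 18 fall among the control hearts.

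Leaving out each of the 20 libraries in turn gave log2 folds between 0.44 (without control 13, the lowest control heart) and 0.50 (without rapamycin 3, the lowest rapamycin heart). In all 20 of these fits the remaining rapamycin hearts were still above all remaining control hearts. This is no separate support, since leaving a library out of a separated set can bring overlap only through changed scaling factors. Without the 4 libraries that held lung transcripts the fold was 0.43 ± 0.07, and without the 8 libraries that held lung, liver or thymus transcripts, which leaves 6 hearts per diet, it was 0.42 ± 0.09. In control 19, the library with the most lung RNA, Tmem47 was at 28.6 normalised CPM, inside the range of the other control hearts.

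**Figure D2:**
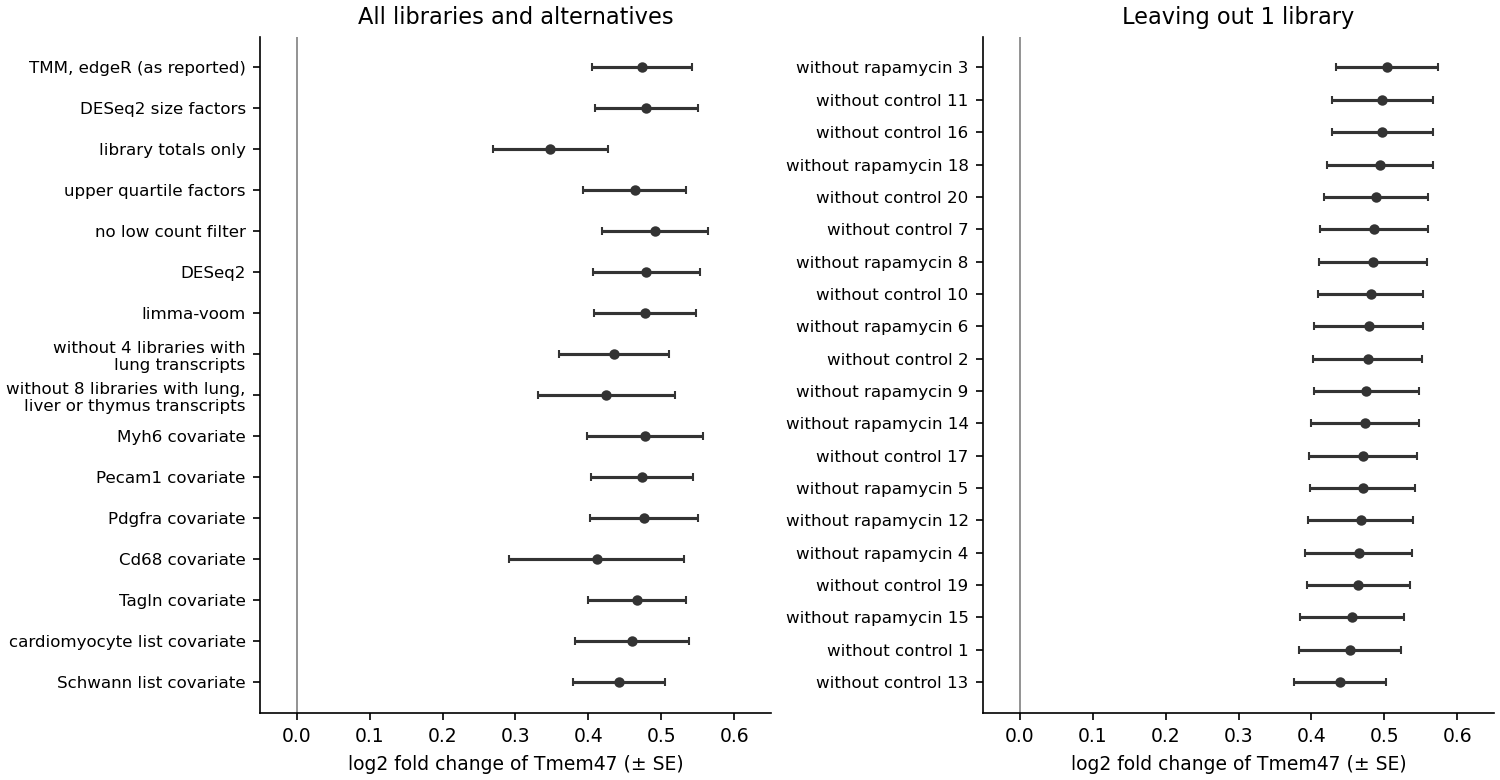
Log2 fold change of Tmem47, rapamycin over control, with its SE as bars, under each processing alternative (left) and without each library in turn (right). All points are to the right of 0, with library totals lowest at 0.35 and the fits without 1 library between 0.44 and 0.50.

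Hearts on the same diet differed little in Tmem47. A small spread favours the separation for which the gene was chosen, so it is given as a description. The coefficient of variation was 12.1% among control hearts. Counting error alone would give 5.76%, and 10.6% remained after its square was subtracted, so the values do not add up as parts. Among rapamycin hearts the coefficient was 8.42%, with 4.89% from counting and 6.86% remaining in the same way. The edgeR biological coefficient of variation of the gene was 0.107 against 0.202 for the table as a whole. This is not unusual for its level: among 3212 genes within 1.5 times of its mean the median coefficient of variation was 13.1% in control hearts and 9.74% in rapamycin hearts. Of those genes 43.5% varied less than Tmem47 among control hearts and 34.0% among rapamycin hearts.

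Cell type genes differed in how they moved with diet beside Tmem47. Myh6, made by cardiomyocytes, was at 15479 ± 4442 normalised CPM in control hearts and 20365 ± 2735 in rapamycin hearts, a log2 fold of 0.40 ± 0.17 that did not pass (edgeR adjusted p = 0.189). Pecam1, an adhesion molecule of endothelial cells, was at 256 ± 39.8 and 248 ± 26.8 (-0.04 ± 0.08, adjusted p = 0.793). Pdgfra, a growth factor receptor of fibroblasts, was at 69.2 ± 13.7 and 61.0 ± 10.3 (-0.18 ± 0.11, adjusted p = 0.367). Tagln, an actin-binding protein of smooth muscle, was at 35.4 ± 14.1 and 35.97 ± 10.5 (0.02 ± 0.23, adjusted p = 0.968). Cd68, a lysosomal protein of macrophages, was the gene of the 5 that changed. It fell from 14.6 ± 4.39 to 7.45 ± 1.73 normalised CPM (-0.96 ± 0.16, adjusted p = 0.00545), and it was called in all 20 fits that left out 1 library.

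Marker lists of 12 genes, which include these genes, showed edgeR calls for macrophages and none for cardiomyocytes, endothelium or fibroblasts. None of the 12 cardiomyocyte markers was called by edgeR, although all 12 were above 0 with a median log2 fold of 0.30, against a median of -0.01 over all genes tested. DESeq2 called 1 of them as rising, as did edgeR without control 19. None of 12 endothelial markers (median -0.06) and none of 12 fibroblast markers (median -0.10) was called. Of 12 macrophage markers 10 fell (83.3%, median -0.68), where 2.68% of all genes fell. The macrophage count was between 4 and 11 in the fits without 1 library, 10 without control 19, and 0 without the 8 libraries that held other tissues, a fit in which edgeR called no gene at all. It was 2 with Myh6 or the cardiomyocyte list as a covariate and 1 with Pdgfra. Shorter lists of 8 tested genes each had no call for smooth muscle (median 0.08), pericytes (0.26) and adipocytes (0.08). In the lists for Schwann cells and nerve (median 0.17) and for the mesothelium (median -0.90) 1 gene each fell (12.5% of each list). These were Cnp and Msln, named after their values were seen. No member of the lung, liver and thymus lists passed the expression filter. In RNA from whole hearts, fewer cells of a type and less RNA per cell cannot be told apart, and the part of cell composition in the level of Tmem47 was not tested beyond the values given here.

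Ratios within a library do not depend on scaling, and they showed how the choice of reference sets the size of the difference. The log2 ratio of Tmem47 to Cd68 counts was higher by 1.43 ± 0.18 (SE) in rapamycin hearts, and all 10 rapamycin hearts were above all control hearts. Cd68 itself fell and Tmem47 was chosen for its separation, so that ratio is no separate support. The ratio to Pecam1 was higher by 0.52 ± 0.11, with 9 of 10 rapamycin hearts above every control heart, and the ratio to Pdgfra by 0.66 ± 0.14, with 7 of 10. The ratio to Tagln was higher by 0.37 ± 0.26, and no rapamycin heart was above every control heart. Against heart muscle the ratio to Myh6 was higher by 0.01 ± 0.21 and the ratio to the sum of 12 cardiomyocyte markers by 0.08 ± 0.18, and no rapamycin heart was above every control heart. Both values were lowered by control 19, which was low in Myh6. Without it they were 0.17 ± 0.15 and 0.22 ± 0.12, with 2 and 4 of 10 rapamycin hearts above every control heart.

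Adding a cell type measure to the edgeR model gave folds close to the one without it. The log2 fold of Tmem47 was 0.48 ± 0.08 with Myh6 as a covariate, 0.46 ± 0.08 with the mean of the cardiomyocyte list, 0.47 ± 0.07 with Pecam1, 0.48 ± 0.07 with Pdgfra and 0.47 ± 0.07 with Tagln. With Cd68, which itself differed between the diets, it was 0.41 ± 0.12 and had the widest error. The within-library ratio to Myh6 and the fit with Myh6 as a covariate therefore gave different values, 0.01 (0.17 without control 19) and 0.48. The ratio takes Tmem47 to change in proportion to Myh6, whereas the covariate uses the slope seen among hearts, which is described next.

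Among hearts on the same diet no relation of Tmem47 to the 5 cell type genes passed the test. Correlations were taken on log2 CPM as deviations from the diet mean, so that the diet difference does not enter, with 2-sided permutation tests within diet and Benjamini-Hochberg adjustment over 15 relations. With Pecam1 Pearson's r over 20 hearts was 0.01 (rho 0.13, permutation p = 0.958, adjusted p = 0.982), and with Pdgfra it was 0.03 (rho 0.0061, p = 0.897, adjusted p = 0.982). With Cd68 it was -0.16 (rho -0.24, permutation p = 0.547, adjusted p = 0.982). A relation of Tmem47 to macrophage transcripts within a diet was not detectable with 20 hearts.

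The values for Myh6 and Tagln changed with the hearts included. With Myh6 r was -0.04 over 20 hearts (rho -0.21, permutation p = 0.909, adjusted p = 0.982), but -0.50 without control 19 (adjusted p = 0.353). Without the 2 hearts farthest from the median of Myh6, rapamycin 5 and control 19, it was -0.54 (permutation p = 0.0342 before adjustment). With Tagln r was 0.35 (rho 0.02, permutation p = 0.182, adjusted p = 0.982) over 20 hearts, and -0.02 without rapamycin 14 and control 13. Among control hearts alone r with Tagln was 0.51 without control 13 and control 11, and in rapamycin hearts it was -0.12. Within each diet alone none of the 10 relations passed either, the largest being Tagln in control hearts with r = 0.53 (permutation p = 0.110, adjusted p = 0.982). With Pecam1 r rose to 0.68 in the 12 libraries free of other tissues (adjusted p = 0.154).

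**Figure D3:**
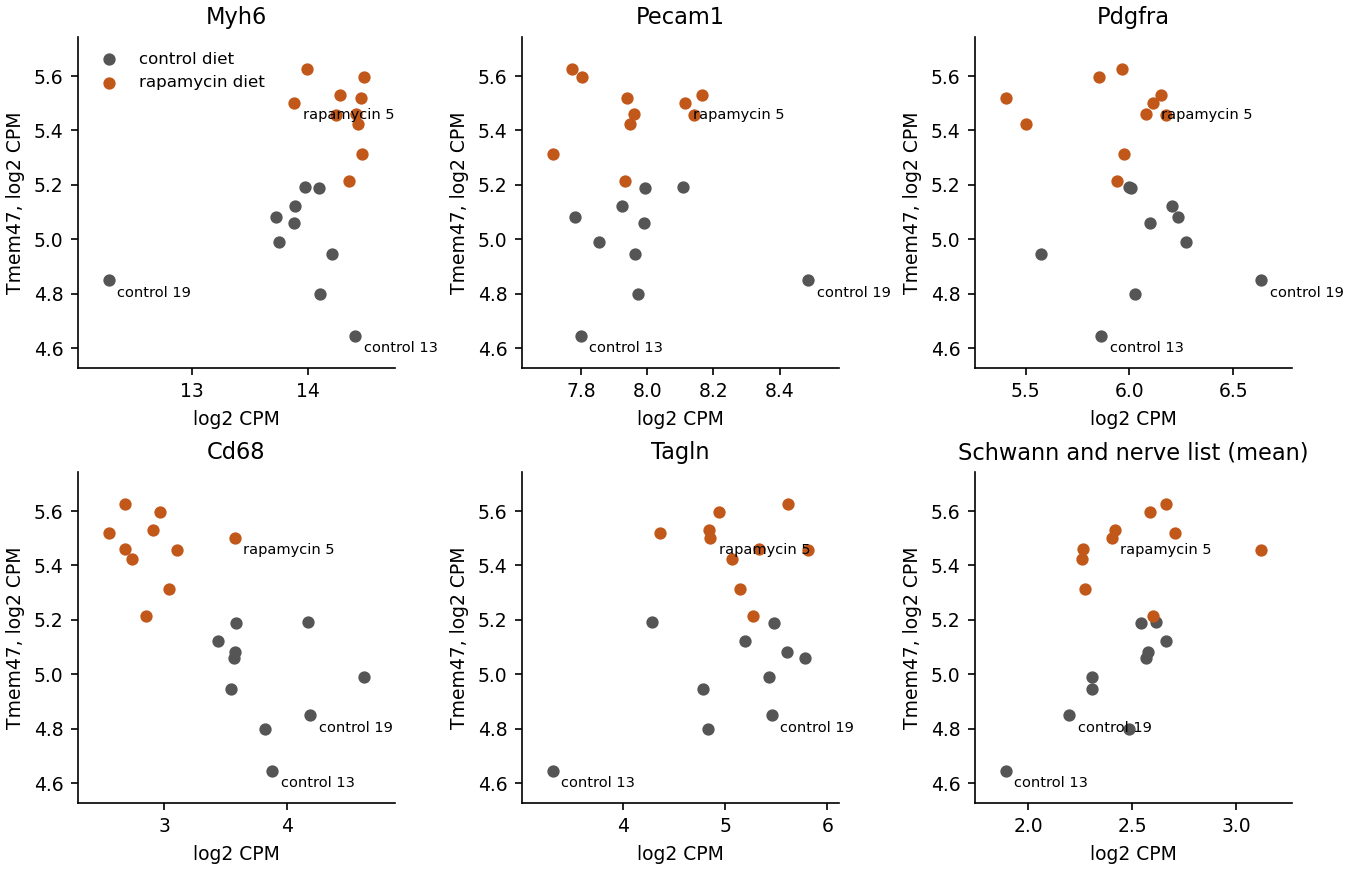
Tmem47 (vertical axes, log2 CPM after TMM scaling) against 5 cell type genes and the mean of the Schwann cell and nerve markers (horizontal axes, log2 CPM), with 1 point per heart. The diets form separate bands in Tmem47, and within a band the points show no common slope for Pecam1, Pdgfra or Cd68. Control 19 is far from the rest in Myh6 and Pecam1. Without it r with Myh6 was -0.63 in control hearts, beside -0.33 in rapamycin hearts, and neither passed the adjusted permutation test.

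Marker lists average over several genes and were compared in the same way, in a family of 36 relations with 9 lists and 3 library measures. None passed the adjustment. The strongest was with markers of Schwann cells and nerve, the glia and fibres of cardiac innervation: r was 0.54 over 20 hearts (rho 0.56, permutation p = 0.0140, adjusted p = 0.252). In control hearts it was 0.85 (rho 0.82, permutation p = 0.00253, adjusted p = 0.0911), and 0.59 without control 19 and control 13. In rapamycin hearts it was 0.18 (rho 0.30, permutation p = 0.601, adjusted p = 0.966). With library totals in place of TMM the relation passed over 20 hearts (r = 0.64, permutation adjusted p = 0.0414) and in control hearts (r = 0.88, permutation adjusted p = 0.0414). These markers are scarce in whole hearts, at a mean of 2.41 log2 CPM in control hearts and 2.53 in rapamycin hearts, and with their mean as a covariate the log2 fold of Tmem47 was 0.44 ± 0.06. Among the library measures r was -0.10 with the total count, 0.14 with the share of mitochondrially encoded transcripts and -0.17 with lung transcripts (permutation adjusted p = 0.966 for each).

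The genes whose levels followed Tmem47 most closely were sought over 11360 genes with a mean of at least 5 normalised CPM, as Pearson's r over 20 hearts on deviations from the diet mean. The highest were Epm2aip1 (0.81), which encodes a partner of the glycogen phosphatase laforin, Maged2 (0.79), Zcchc11 (0.79), a terminal uridylyltransferase of RNA, AI597468 (0.79), Ppp1r12a (0.78), the targeting subunit of myosin phosphatase, and Dpy19l4 (0.78). The lowest were LOC100502846 (-0.82), Traf7 (-0.76), a ubiquitin ligase, Prodh (-0.73), the mitochondrial proline dehydrogenase, Psmd8 (-0.72), a proteasome subunit, Rbp7 (-0.72), a retinol-binding protein, and Pop5 (-0.71), a subunit of ribonucleases P and MRP. These are the ends of a wide distribution, whose 1st and 99th percentiles were -0.56 and 0.59, and they are given as a description with no test. None of the 12 genes was called by diet. Ppp1r12a was similar in both diets (r = 0.78 in control hearts and 0.80 in rapamycin hearts), whereas Maged2 was at 0.93 in control hearts and 0.44 in rapamycin hearts.

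The levels of the claudin, PMP22 and EMP family were compared per kilobase of exon, so that long and short genes share a scale. By its mean Tmem47 had rank 8 of the 15 family members tested in control hearts, rank 7 there without control 19, and rank 7 in rapamycin hearts. Its level was 7.89 ± 0.951 normalised CPM per kilobase in control hearts and 10.96 ± 0.922 in rapamycin hearts (SD, n = 10 each). The most abundant members were Perp, a desmosome-associated target of p53 (52.2 ± 15.3 and 58.5 ± 10.1), and Pmp22, best known from peripheral myelin (32.2 ± 13.2 and 25.3 ± 3.20). The scarcest was Cldn1, a claudin of epithelial barriers, at 0.280 ± 0.150 and 0.181 ± 0.102. Over all 10 control hearts Tmem47 did not differ beyond the spread from its neighbours in the order, Emp2 (10.1 ± 11.2, or 6.60 ± 0.428 without control 19) and Cldn12 (7.41 ± 0.808). In rapamycin hearts it was above both, with Emp2 at 7.54 ± 0.351 and Cldn12 at 7.49 ± 0.555. The level of Emp2, a membrane protein abundant in lung, reached 41.9 per kilobase in control 19 and had a range of 6.96 to 8.05 in rapamycin hearts.

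**Figure D4:**
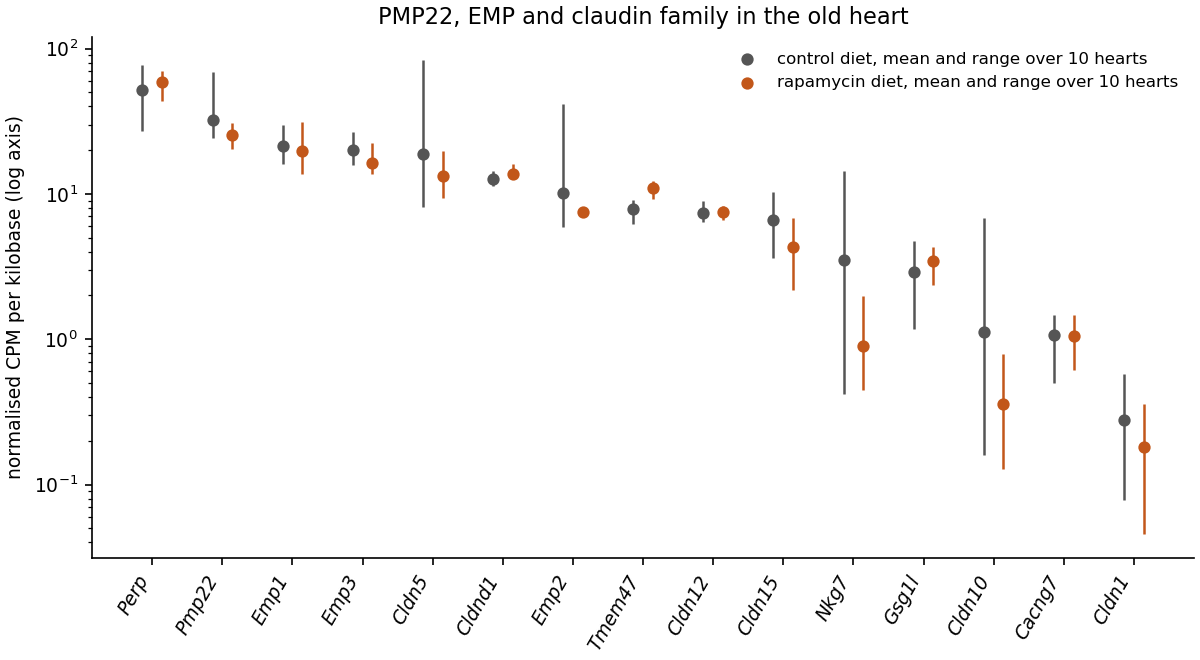
Levels of the 15 tested members of the PMP22, EMP and claudin family, in normalised CPM per kilobase of exon on a log axis; points are means and lines the range over 10 hearts of each diet. Tmem47 (7.89 and 10.96) is the member whose ranges do not overlap between the diets, which was part of its choice and does not hold with library totals. The long control lines of Emp2 and Cldn5 end at control 19.

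With edgeR and all 20 libraries no other member of the family was called as rising. Of 16 further family members 9 were tested, 0 rose and 1 fell (11.1%, against 2.68% of all genes), with a median log2 fold of -0.12. A share that rests on 1 gene is no result about the family. The gene that fell was Nkg7, a granule protein of natural killer and cytotoxic T cells, from 3.21 ± 3.97 to 0.819 ± 0.467 normalised CPM (-1.92 ± 0.52, edgeR adjusted p = 0.0457). Without control 19 its adjusted p was 0.0716, and it was called in 8 of the 20 fits without 1 library. Emp1 was at 126 ± 23.8 and 116 ± 29.5 (-0.12, adjusted p = 0.627), and Perp at 102 ± 29.9 and 114 ± 19.7 (0.16, adjusted p = 0.542). Emp2 had a log2 fold of -0.42 (adjusted p = 0.444) with all libraries, but 0.20 (adjusted p = 0.0151) without control 19. DESeq2 on all 20 libraries called it as rising, with a fold of 0.19 (adjusted p = 0.0023). That fit used the tool's default handling of outlying counts, and whether this acted on control 19 was not tested. It is therefore no separate support for the fold without control 19. Of 22 claudins only 5 were abundant enough to test and edgeR called none (median -0.58). Cldn5, the claudin of endothelial tight junctions, had a fold of -0.49 (adjusted p = 0.450) and of 0.18 (adjusted p = 0.582) without control 19. Cldn12 was at 31.3 ± 3.42 and 31.7 ± 2.35 (0.02, adjusted p = 0.910), and Cldn15, known from the gut, at 14.1 ± 4.36 and 9.22 ± 2.59 (-0.61 ± 0.18, adjusted p = 0.0636). Cldn15 was called as falling by DESeq2 (adjusted p = 0.0274), by edgeR with library totals (adjusted p = 0.0271) and in 3 of the 20 edgeR fits without 1 library.

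Across the wider machinery of cell junctions the diets differed at few genes. Of 122 genes in 6 lists, 85 were tested, and 2 rose (2.35%, against 0.689% of all genes tested) and 3 fell (3.53%, against 2.68%). Together 5.88% of the junction genes were called, against 3.36% of all genes, and their median log2 fold was 0.0046 with 45 above and 40 below 0. With so few calls, these edgeR shares are no result about junction genes as a group. The counts differed between tools. With DESeq2 8 of the 85 rose and 3 fell, beside 322 rises and 647 falls among all 13940 genes. With limma-voom 1 of the 85 was called, beside 273 of all genes. Without control 19 there were 3 rises, of Cdh2, Dsg2 and Emp2, and no falls. The 2 genes that rose with all libraries are components of the intercalated disc.

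Cdh2, N-cadherin, the adherens junction cadherin of cardiomyocytes, rose from 194 ± 48.2 to 277 ± 30.4 normalised CPM (log2 fold 0.51 ± 0.14, edgeR adjusted p = 0.0407). Control hearts ran from 77.5 in control 19 to 270 with a median of 194, and rapamycin hearts from 222 to 322 with a median of 276. Without control 19 the fold was 0.43 with an adjusted p of 0.0064. Dsg2, the desmosomal cadherin of heart muscle, rose from 101 ± 21.7 to 135 ± 12.3 (0.42 ± 0.11, adjusted p = 0.0349). Its control hearts ran from 55.6 to 127 and its rapamycin hearts from 121 to 162, so both cadherins overlapped between the diets. Both were called in only 8 of the 20 fits that left out 1 library, with adjusted p up to 0.0775 for Cdh2 and 0.0724 for Dsg2. The calls held without control 10, 16, 17, 19 or 20 or rapamycin 3 or 5, for Cdh2 also without control 13 and for Dsg2 also without rapamycin 8, and were lost without any other library.

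The other disc proteins named by the rule did not pass in the edgeR fit, although DESeq2 called Ctnna1 (adjusted p = 0.0084) and Lmo7 (adjusted p = 0.0091) as rising. In all DESeq2 called 8 of the 85 tested junction genes as rising, beside 322 of all 13940 genes. In the adherens list 18 of 22 genes were tested, with 1 up (5.56%, against 0.689% of all genes), 0 down and a median of 0.12. There Ctnna1, alpha-catenin, was at 465 ± 37.4 and 530 ± 37.1 (0.19 ± 0.06, edgeR adjusted p = 0.0705). Lmo7, which binds the afadin-nectin complex, was at 443 ± 41.6 and 507 ± 30.1 (0.19 ± 0.06, adjusted p = 0.0664). In the list of desmosomes, gap junctions and disc proteins 13 of 17 were tested, with 1 up (7.69%), 0 down and a median of 0.20. Desmoplakin, Dsp, was at 961 ± 302 and 1232 ± 202 (0.36 ± 0.18, edgeR adjusted p = 0.251). Gja1, which encodes connexin 43, was at 408 ± 103 and 469 ± 62.3 (0.20, adjusted p = 0.414), and Xirp2 was at 945 ± 337 and 1024 ± 153 (0.12, adjusted p = 0.734). The cardiomyocyte markers had a median fold of 0.30 in the same libraries. With Myh6 as a covariate the edgeR folds were 0.22 ± 0.08 for Cdh2 (adjusted p = 0.194) and 0.23 ± 0.09 for Dsg2 (adjusted p = 0.246). With the cardiomyocyte list as a covariate they were 0.22 ± 0.06 (adjusted p = 0.0962) and 0.24 ± 0.09 (adjusted p = 0.206). Neither gene passed with Pdgfra as a covariate, at folds of 0.42 ± 0.12 and 0.37 ± 0.11 (edgeR adjusted p = 0.0903 and 0.0968). With the Schwann cell list neither passed, at folds of 0.52 ± 0.14 and 0.40 ± 0.11 (edgeR adjusted p = 0.0620 and 0.0597). These fits called fewer genes over the whole table than the 469 called without a covariate. The counts were 66 with Myh6, 54 with the cardiomyocyte list, 56 with Pdgfra and 195 with the Schwann cell list. The part of heart muscle transcripts in the 2 rises was not tested. With Cd68 neither passed, at folds of 0.26 ± 0.23 and 0.08 ± 0.16. Both passed with Pecam1 (edgeR adjusted p = 0.0203 and 0.0241) and Tagln (0.0358 and 0.0382).

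Scaffolds of tight junctions showed 1 call, which control 19 set in size. Of 21 genes 19 were tested, 0 rose and 1 fell (5.26%, against 2.68% of all genes), with a median log2 fold of 0.02. The gene that fell was Cgn, cingulin of epithelial tight junctions, from 6.01 ± 12.6 to 1.04 ± 0.737 normalised CPM (-2.51 ± 0.69, edgeR adjusted p = 0.0479). Control 19 alone held 41.7, the median of control hearts was 2.27, and without that library the fold was -0.98 with an adjusted p of 0.0853. Cgn was called in 5 of the 20 fits without 1 library. Tjp1, the scaffold ZO-1, was at 115 ± 22.8 and 122 ± 14.1 (0.09, adjusted p = 0.594). The gene listed as Csda, which encodes the ZO-1-associated Y-box protein Ybx3, was at 104 ± 24.1 and 117 ± 16.9 (0.17, adjusted p = 0.398), and Cgnl1, paracingulin, at 105 ± 14.9 and 100 ± 14.5 (-0.07, adjusted p = 0.701).

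Genes of the polarity complexes and Src family kinases are the setting of the reported partners of the Tmem47 protein. Of 24 members 21 were tested, 0 rose and 1 fell (4.76%, against 2.68% of all genes), with a median of -0.01. Csk, the kinase that holds Src family members inactive, fell from 29.0 ± 3.63 to 23.7 ± 3.11 (-0.29 ± 0.08, edgeR adjusted p = 0.0468), and its adjusted p was 0.0633 without control 19. It was called in 6 of the 20 fits without 1 library. Fyn, the Src family kinase among the partners, was at 60.7 ± 8.19 and 62.3 ± 5.07 (0.04 ± 0.07, adjusted p = 0.803). Prkci, an atypical protein kinase C, was at 27.5 ± 12.9 and 24.3 ± 2.78 (-0.17 ± 0.16, adjusted p = 0.568), with a fold of 0.06 without control 19. Pard6b, a PAR6 polarity protein, was at 5.98 ± 8.68 and 2.75 ± 0.545 (-1.10 ± 0.43, adjusted p = 0.144), and control 19 held 30.6 of it. Cdc42 and Rac1, small GTPases of the same pathway, had folds of -0.12 (adjusted p = 0.398) and 0.00 (adjusted p = 0.991), and Dlg1, a scaffold of the Scribble complex, of 0.10 (adjusted p = 0.206).

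**Figure D5:**
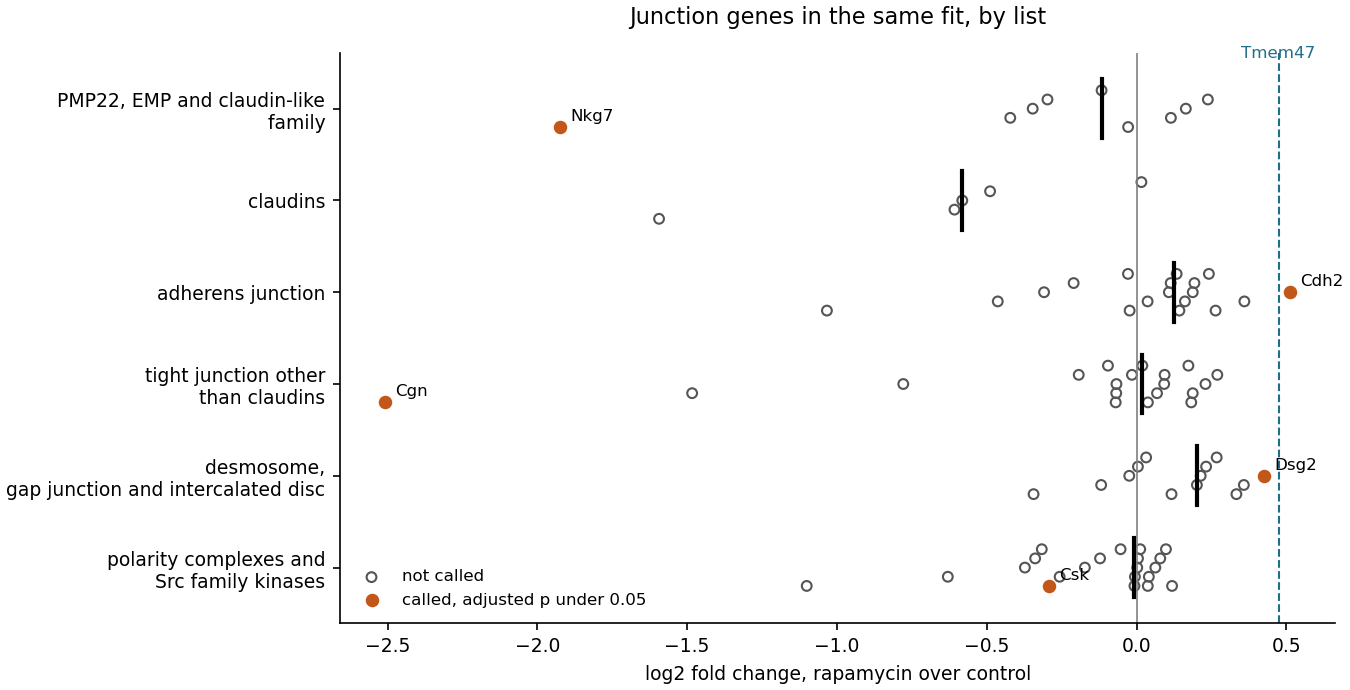
Log2 fold change of rapamycin over control for the 85 tested genes of 6 junction lists, with filled points for the 5 called genes, black bars for the list medians and a dashed line at Tmem47 (0.47). Most genes lie near 0; Cdh2 (0.51) and Dsg2 (0.42) are next to Tmem47, and Cgn (-2.51) and Nkg7 (-1.92) are far to the left.

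Nothing near Tmem47 on the X chromosome was expressed enough to compare. The nearest genes present in the table were Gm6954, Gm8806 and Gm5940 on one side and 4930595M18Rik, Gm8822 and Rpl10-ps4 on the other, 5 of them pseudogenes. Each had at most 3 counts in any library and none was tested, so the higher level of Tmem47 had no measurable counterpart among its neighbours at this depth.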

How the data were processed

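Per the series' design text, 50 bp paired-end reads of 20 hearts were mapped to unique sites of MGSCv37 with at most 2 mismatches. For the aligner, counter, strand setting and annotation the answer is not given in the sources used here. The submitters' processing notes list edgeR, with no role. The authors deposited raw read counts per gene symbol (34291 rows, 20 columns), and CPM of 700 genes, of which 696 matched by symbol and equal counts over library totals within 0.001 CPM. The column of rapamycin 4 lacks 1 letter of its sample title and was assigned by its number.

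Counts were tested here with edgeR 4.0.16 (quasi-likelihood, TMM, default expression filter leaving 13940 genes, Benjamini-Hochberg threshold 0.05, no covariates, all 20 libraries) in R 4.3.3. A gene is called to rise or fall below that threshold, and an SE is the absolute log2 fold over the root of the F statistic. Alternatives used DESeq2 1.42.0 and limma 3.58.1. Correlations used log2 CPM with a prior count of 2 and 100000 permutations within diet (Python 3.11.15). Exon lengths came from GENCODE M21, and gene order from RefSeq on GRCm38.p6. That build differs from the files', so no coordinates are given. Replicates are mice per the design text, the labels give neither batch nor pairing, and the smallest chi-square per degree of freedom between libraries of a diet was 5.56. In simulated data of the same size, changes of 0.5 on the log2 scale were recovered in 74% and of 0.3 in 26% of cases. The simulation drew each gene independently and had no library with RNA of other tissues. Its shares therefore do not give the power in the real libraries.

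Tmem47 and the gene lists were chosen with earlier results of these data known. Named were the 5 cell type genes, each called member and the 3 most abundant members of each junction list, 3 neighbours on each side, the 6 genes most and least correlated with Tmem47, and 3 reported protein partners. Of these, 1 gene is not reported here.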

Additional observations from a re-analysis of the deposited data

Results flagged for a closer look

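Among 31 named genes, each examined in both diets, 14 of 62 groups of 10 hearts held a value whose gap to the nearest other heart exceeded Dixon's 95% limit for the range. Chance gives such a gap in about 1 in 20 groups. Tmem47 was not among them in either diet. Of the 14 values, 10 came from control 19, the heart library with 29261 CPM of lung transcripts.

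In control 19 the highest values were Emp2 at 361.9 normalised CPM, Cldn5 at 117.3, Cgn at 41.7, Tjp1 at 174.7, Cdc42 at 302.8, Pard6b at 30.6, Prkci at 63.9 and Pecam1 at 358.7. The same library was lowest among control hearts for Cdh2 at 77.5 and Myh6 at 4993. Outside it, rapamycin 5 was highest of its diet for Emp1 at 186.1, Cdc42 at 216.8 and Cd68 at 11.7, and control 2 was highest for Cd68 at 24.6. The part of lung RNA in these values was not tested.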

How the results depend on the processing

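The fold of Tmem47 kept its direction in 35 of 35 alternatives and moved by less than the spread between hearts (SD 0.154, log2). This is a description, since the gene was chosen on this contrast and 20 of the alternatives leave out only 1 library. That SD is of single hearts and is wider than the SE of the fold, 0.07. Library totals moved the fold most, from 0.47 to 0.35, which is more than that SE, and there the diets were no longer completely separated. Counts of called genes were less stable. Against 469, library totals gave 1332, DESeq2 969, limma-voom 273 and the 16 libraries without lung transcripts 280. The 12 libraries free of lung, liver and thymus transcripts gave 0 with edgeR (1418 at an unadjusted p under 0.05) and 129 with DESeq2. With a covariate in the model, as chosen after the data were seen, 66 genes were called with Myh6, 56 with Pdgfra, 54 with the cardiomyocyte list, 195 with the Schwann cell list and 0 with Cd68 (edgeR, 496 at an unadjusted p under 0.05), against 645 with Pecam1 and 542 with Tagln. Leaving out 1 library gave 165 (without rapamycin 18) to 791 (without rapamycin 5). Against 5 junction genes called, library totals gave 8, no filter 3, DESeq2 11, limma-voom 1, the 16 libraries 3, the 12 libraries 0, and leaving out 1 library 0 to 8. With Myh6, Pdgfra, Cd68, the cardiomyocyte list or the Schwann cell list as a covariate edgeR called 0 junction genes, with Pecam1 5 and with Tagln 6. No junction gene was called without rapamycin 4, 6, 9, 12, 14, 15 or 18, or control 2 or 11. With library totals 2 of 36 marker list relations passed, against 0. The causes were not tested.

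Small correlations changed sign: with Myh6 0.0364 in control hearts, with Pecam1 -0.00831 in control hearts, with Pdgfra -0.0170 in rapamycin hearts, with Cd68 0.17 by library totals and 0.00281 in the 12 libraries, and with Tagln -0.12 in rapamycin hearts and -0.0154 without the 2 farthest hearts. Folds of genes that edgeR did not call with all libraries also did, and of these Emp2 was called by DESeq2 and without control 19. By library totals these were Cldn12 -0.11, Tjp1 -0.0475, Rac1 -0.13, Dlg1 -0.0239, Fyn -0.0811 and Tagln -0.11. By upper quartile factors Rac1 was -0.00480. By DESeq2 Emp2 was 0.19 and Cldn5 0.18. In the 16 libraries Emp2 was 0.17, Cldn5 0.18, Cgnl1 0.0314, Prkci 0.00338, Pecam1 0.0520 and Tagln -0.0155. In the 12 libraries Emp2 was 0.15, Cldn5 0.13, Cldn12 -0.00424, Cgnl1 0.0895, Fyn -0.00120, Pecam1 0.0333 and Tagln -0.0346. Leaving out 1 library gave Emp2 -0.49 to 0.20, Cldn5 -0.58 to 0.18, Cldn12 -0.00107 to 0.0505, Prkci -0.21 to 0.0600, Pecam1 -0.0689 to 0.0273, Rac1 -0.0230 to 0.0582 and Tagln -0.0890 to 0.11.

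No paired analysis was possible because each library number occurs in 1 diet only. At this depth counting error was 5.76% of the level of Tmem47 in control and 4.89% in rapamycin libraries.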

Other observations

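The sex-linked genes were at or near 0 in every library. The row of Xist, the X-inactivation transcript, was listed at 0 throughout, and the Y-linked genes Ddx3y, Eif2s3y, Uty and Kdm5d had at most 2 counts in any heart. Since neither set was measurable in the table, the sex of the animals was not told from it.

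Pygb, the other gene completely separated upwards with TMM scaling, had a log2 fold of 0.50. Its correlation with Tmem47 among hearts of the same diet was 0.19 over 20 hearts, and it is given as a value with no test.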
